A study of Mus musculus with 18 samples.

Results

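Foxa proteins are forkhead transcription factors of liver and other endoderm, often called pioneer factors because they can bind sites in closed chromatin. A conserved forkhead domain contacts DNA, and the N-terminal and C-terminal domains on either side of it differ more between Foxa1, Foxa2 and Foxa3. In fibroblasts, a Foxa protein given together with Hnf4alpha, a nuclear receptor of hepatocytes, can drive a change toward an induced hepatocyte-like (iHep) state. Here 304 genomic regions are described that carried a ChIP-seq peak with every chimera ending in the Foxa3 C-terminal domain and with no chimera starting with the Foxa3 N-terminal domain. They are 304 of the 24999 regions obtained by merging overlapping peaks of 8 Foxa libraries, or 1.22% of all regions.

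The regions were selected by presence and absence of a called peak: present in all 4 lists of one kind, absent from all 4 of the other. That pattern, and every measure of peak strength behind it, is therefore given as a description without a test. The 4 chimeras that held the regions were Foxa1 with the C-terminal domain of Foxa3 (Foxa1-C3, mapped with a Foxa1 antibody), Foxa2 with the same domain of Foxa3 (Foxa2-C3, Foxa2 antibody), Foxa3 with the N-terminal domain of Foxa1 (Foxa3-N1, Foxa1 antibody) and Foxa3 with that of Foxa2 (Foxa3-N2, Foxa2 antibody). The 4 that lacked them were Foxa1-N3 and Foxa2-N3, which are Foxa1 and Foxa2 carrying the N-terminal domain of Foxa3, and Foxa3 with the C-terminal domain of Foxa1 or Foxa2 (Foxa3-C1, Foxa3-C2), all mapped with a Foxa3 antibody. Every culture was made from C57BL/6 mouse embryonic fibroblasts of 13.5 days post coitum and was also infected with Hnf4alpha. The 2 kinds of chimera differ at both ends of the protein and by antibody at once, so these effects cannot be told apart. Each chimera had 1 ChIP library, infected cultures may hold different amounts of each protein, and the labels do not say whether embryos were pooled.

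Lengths of the lists matter for every absence reported below. The lists with the Foxa3 C-terminal domain held 4807 peaks (Foxa1-C3), 13715 (Foxa2-C3), 7625 (Foxa3-N1) and 16543 (Foxa3-N2), and those with the Foxa3 N-terminal domain held 956 (Foxa1-N3), 5230 (Foxa2-N3), 7533 (Foxa3-C1) and 3594 (Foxa3-C2). The files list peaks and not reads, so sequencing depth is unknown, and a region without a called peak is not shown to be unbound. Positions are on mm9; genes and base sequences at the regions were not analysed here because the gene and sequence tables at hand are on GRCm38.

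The rule took a small share of what the chimeras with the Foxa3 C-terminal domain had in common. Those 4 lists shared 2791 regions. Of these, 304 had no peak in the other lists (10.9%, 95% Wilson interval 9.79 to 12.1%), 442 had a peak in 1 of them (15.8%), 577 in 2 (20.7%), 939 in 3 (33.6%) and 529 in all 4 (19.0%). Most regions common to the chimeras with the Foxa3 C-terminal domain were thus also held by some chimera with the Foxa3 N-terminal domain. All intervals here cover counting error only.

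The list of Foxa3-C1 decided membership most often. Among the 442 regions 1 list short of the rule, the peak that kept them out came from Foxa3-C1 in 241 cases, Foxa2-N3 in 138, Foxa3-C2 in 56 and Foxa1-N3 in 7. These counts follow the order of list length. Without Foxa3-C1 the rule would have taken 545 regions, and without the short Foxa1-N3 list 311.

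On the side that held the regions the order by list length was reversed: the shorter the list, the more often its peak was missing. A region found in 3 of the 4 lists on that side, but in no list with the Foxa3 N-terminal domain, lacked the Foxa1-C3 peak in 592 cases, the Foxa3-N1 peak in 391, the Foxa2-C3 peak in 79, and the Foxa3-N2 peak in 23. Put as shares, Foxa1-C3 held 33.9% of the 896 such regions found in the other 3 lists (30.9 to 37.1%), and Foxa3-N1 held 43.7% of 695 (40.1 to 47.5%). Foxa2-C3 held 79.4% of 383 (75.0 to 83.1%) and Foxa3-N2 93.0% of 327 (89.7 to 95.3%). Both lists made with the Foxa1 antibody were thus the ones that limited the number of members, and both were shorter than those made with the Foxa2 antibody. Where at least 1 list with the Foxa3 N-terminal domain also had a peak, the shares were higher: 66.5% for Foxa1-C3, 85.1% for Foxa3-N1, 96.7% for Foxa2-C3 and 95.8% for Foxa3-N2 (94.9 to 96.5%, which overlaps the interval above).

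**Figure D1:**
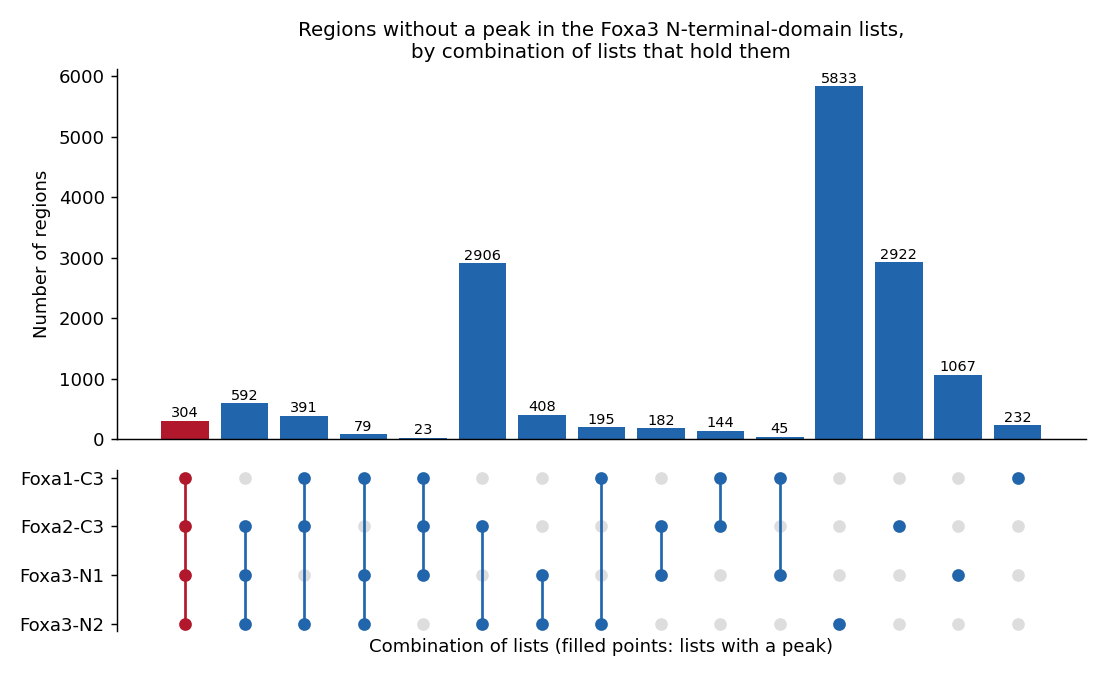
Number of regions with no peak in the 4 lists with the Foxa3 N-terminal domain (vertical axis), for each combination of lists with the Foxa3 C-terminal domain that held them (filled points below). The 304 regions of all 4 lists are in red; the Foxa2-C3 and Foxa3-N2 pair alone held 2906 regions and Foxa3-N2 alone 5833.

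The 304 regions stand at the end of a series of 15323 regions without a peak in the lists with the Foxa3 N-terminal domain. Of these, 10054 were held by 1 list, 3880 by 2, 1085 by 3 and 304 by all 4. The 2 chimeras with the Foxa2 N-terminal domain shared 2906 regions with each other alone. Both chimeras with the Foxa1 N-terminal domain shared 45 with each other alone. Of all regions held by only that pair among the lists with the Foxa3 C-terminal domain, these were 76.3% and 52.9%. The pairs also differ in list length and antibody, so the counts do not compare the N-terminal domains. In every list the median percentile of the score was higher for members than for the regions that the list held alone. Percentiles rank a peak by the authors' score within its own list, with 100 for the strongest. In Foxa3-N2 the median percentile was 80.9 for members and 29.2 for its 5833 own regions. In Foxa2-C3 it was 63.4 for members and 25.3 for its 2922 own regions. In Foxa3-N1 it was 40.2 for members and 26.8 for its 1067 own regions. In Foxa1-C3 it was 44.4 for members and 21.9 for its 232 own regions.

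The members were of middling strength in the lists made with the Foxa1 antibody and of high strength in Foxa3-N2. In Foxa1-C3 their percentiles ran from 0.0832 to 94.6, with quartiles of 22.7 and 65.0. In Foxa2-C3 they ran from 1.80 to 98.5 (quartiles 43.3 and 79.5). In Foxa3-N1 they ran from 0.295 to 95.7 (quartiles 23.1 and 62.1), and in Foxa3-N2 from 3.06 to 99.7 (quartiles 68.9 and 89.6). Above the midpoint of its list lay the peak of 132 members in Foxa1-C3, 120 in Foxa3-N1, 195 in Foxa2-C3 and 267 in Foxa3-N2. Below percentile 10 lay 39 members in Foxa1-C3, 37 in Foxa3-N1, 11 in Foxa2-C3 and 2 in Foxa3-N2. A long list reaches further down to weak peaks, so a percentile in Foxa3-N2 and one in Foxa1-C3 do not stand for the same strength.

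**Figure D2:**
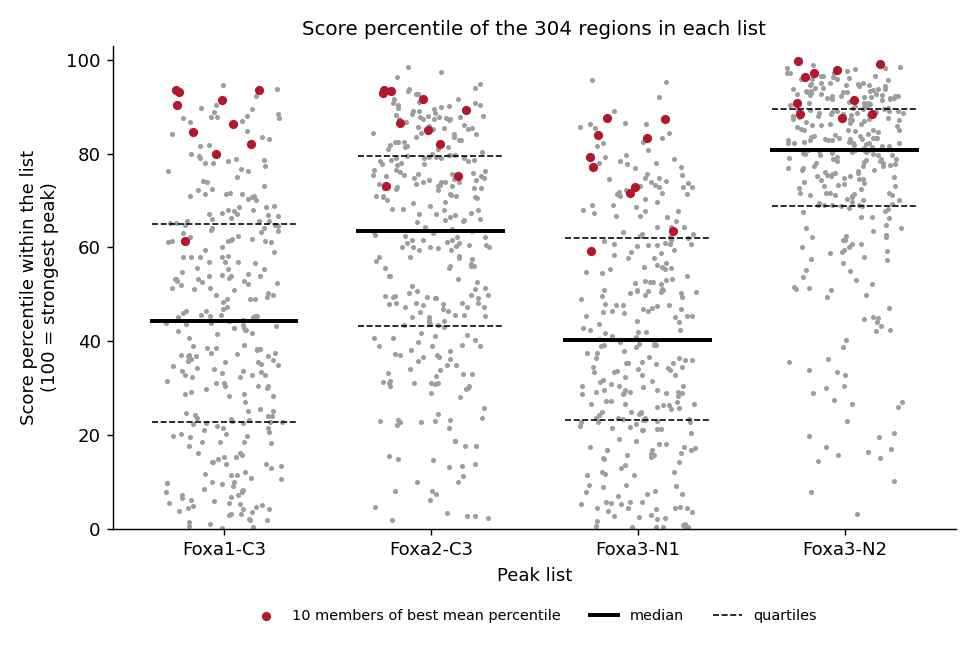
Score percentile (vertical axis, 100 for the strongest peak of the list) of each of the 304 regions in the 4 lists that held them; each point is a region, solid lines are medians and dashed lines quartiles. The medians are 44.4 in Foxa1-C3, 40.2 in Foxa3-N1, 63.4 in Foxa2-C3 and 80.9 in Foxa3-N2, and the 10 regions with the best mean percentile are in red.

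Ranking the 4 lists over one common set, the 2791 shared regions, gives percentiles over the same regions in each list. The set itself still depends on list length, because a region had to be called in all 4 lists. On that scale the median percentile of the members was 30.1 in Foxa1-C3 (quartiles 12.7 and 50.3), 19.4 in Foxa2-C3 (8.65 and 37.0), 18.4 in Foxa3-N1 (8.52 and 36.1) and 35.2 in Foxa3-N2 (19.9 and 55.9). Members were thus mostly among the weaker of the shared regions in every list, and least so in Foxa3-N2. Foxa3-N2 gave a member its highest percentile of the 4 lists in 125 cases (41.1%), Foxa1-C3 in 87, Foxa3-N1 in 53 and Foxa2-C3 in 39. Foxa3-N1 gave the lowest in 118 (38.8%), Foxa2-C3 in 90, Foxa1-C3 in 61 and Foxa3-N2 in 35.

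Pairs of chimeras that share both terminal domains and the antibody, and differ in the DNA-binding domain, can be set side by side on this scale. Between Foxa2-C3 and Foxa3-N2 the percentile was higher in Foxa2-C3 for 83 of the 304 members, and the median difference (Foxa2-C3 minus Foxa3-N2) was -12.4 points. Over all 2791 shared regions the same difference had a median of -0.14 points, and over the 529 regions of all 8 lists 2.62 points. Between Foxa1-C3 and Foxa3-N1 the percentile was higher in Foxa1-C3 for 189 members, with a median difference (Foxa1-C3 minus Foxa3-N1) of 8.19 points, against 0.54 points over all shared regions and -3.51 over the regions of all 8 lists. Over the 442 regions with a single further list, those most like the members, the 2 differences were -2.89 points for Foxa2-C3 minus Foxa3-N2 (Foxa2-C3 higher in 200) and 6.996 points for Foxa1-C3 minus Foxa3-N1 (Foxa1-C3 higher in 270). The second difference was thus close to that of the members. The chimera with the Foxa3 DNA-binding domain was therefore higher for members in the Foxa2-antibody pair and lower in the Foxa1-antibody pair. Foxa3-N1 and Foxa3-N2 share that domain, and their median difference over members (Foxa3-N1 minus Foxa3-N2) was -14.3 points. The chimeras of each pair also differ in list length and may differ in protein amount, so the DNA-binding domain cannot be told apart from the library. With 1 library per chimera none of these differences has a replicate check.

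The order of the members differed between lists. Spearman's rho of the percentiles over the 304 members was 0.39 for Foxa2-C3 with Foxa3-N2, 0.28 for Foxa1-C3 with Foxa3-N2, 0.20 for Foxa1-C3 with Foxa2-C3 and with Foxa3-N1, 0.16 for Foxa3-N1 with Foxa3-N2 and 0.11 for Foxa2-C3 with Foxa3-N1. The same 6 coefficients ran from 0.10 to 0.40 over the 442 regions with a single further list, close to the members' range, and from 0.49 to 0.74 over the 529 regions of all 8 lists. The members are regions of the same 4 libraries and not independent replicates, so these coefficients are a description.

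Median strength was higher at each step in the number of lists with the Foxa3 N-terminal domain that also held a region. In Foxa3-N1 the median percentile was 40.2 with 0 such lists, 51.9 with 1, 67.5 with 2, 79.6 with 3 and 94.5 with 4. In Foxa2-C3 it was 63.4, 76.0, 81.9, 89.3 and 96.3 over the same steps, and in Foxa1-C3 44.4, 50.7, 54.3, 71.1 and 87.1. In Foxa3-N2 the steps were smallest: 80.9, 81.7, 83.6, 89.8 and 94.8. In that list the members and the regions with 1 or 2 further lists differed by less than 3 points.

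**Figure D3:**
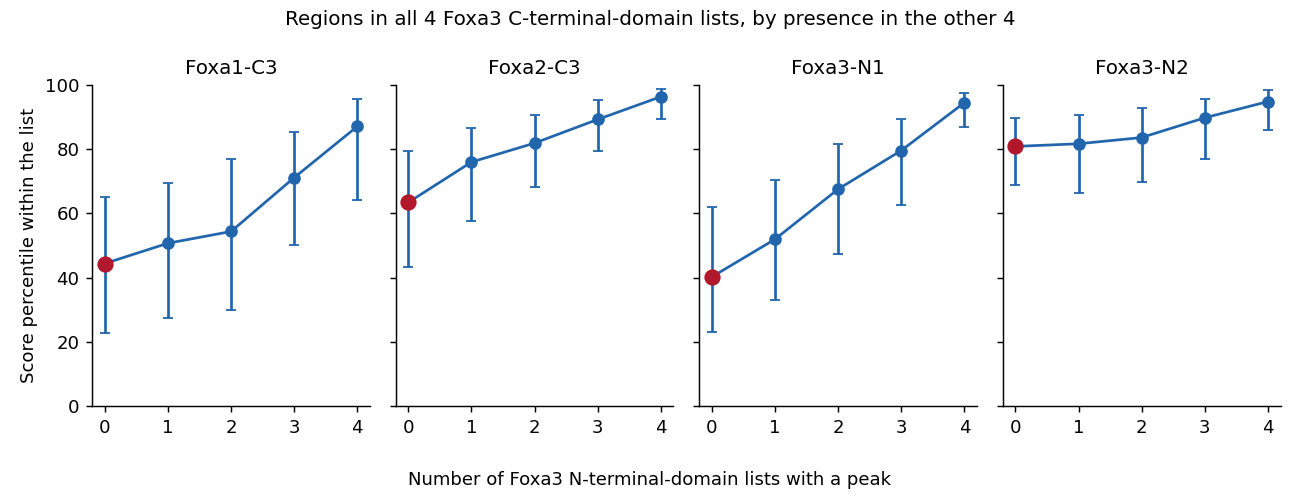
Score percentile within each list with the Foxa3 C-terminal domain (vertical axis) for regions shared by all 4, by the number of lists with the Foxa3 N-terminal domain that also held a peak (horizontal axis). Points are medians and bars run between the quartiles; the 304 members are the red points at 0, and the medians increase from 0 to 4 lists in all 4 panels.

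Members thinned out toward the strong end of the shared regions. The 2791 regions were ordered by their mean percentile over the 4 lists on the common scale and divided into quintiles. Members made up 148 of 558 regions in the weakest quintile (26.5%, 23.0 to 30.3%), 89 in the next (15.9%), 45 in the middle one (8.06%), 22 in the next (3.94%, 2.62 to 5.90%) and 0 of 559 in the strongest, where the Wilson interval reaches 0.683% and 3 counts would be 0.537%. In the strongest quintile every region had a peak in at least 1 list with the Foxa3 N-terminal domain, and 303 of the 559 had one in all 4.

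Each of the lists with the Foxa3 N-terminal domain followed this gradient. Foxa3-C1 held 58.1% of the weakest quintile and 98.9% of the strongest, Foxa2-N3 47.3% and 95.7%, Foxa3-C2 29.9% and 91.9%, and Foxa1-N3 3.76% and 57.1%. Absence from these lists went together with low strength in the 4 lists with the Foxa3 C-terminal domain. The part of list length in the members' absence was not tested.

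**Figure D4:**
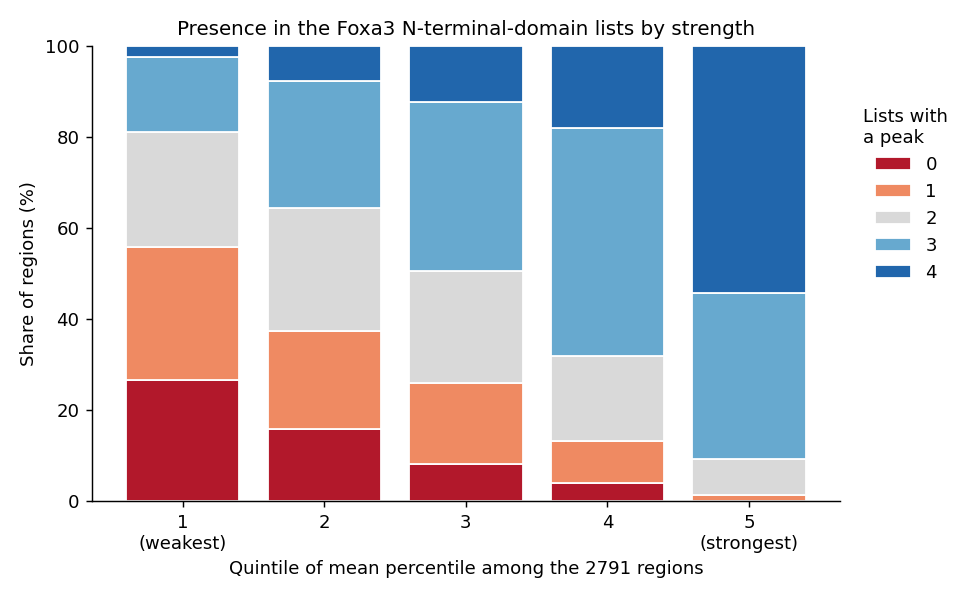
Share of regions (vertical axis) held by 0 to 4 of the lists with the Foxa3 N-terminal domain, in 5 quintiles of mean percentile among the 2791 regions common to the lists with the Foxa3 C-terminal domain. Members (red) make up 26.5% of the weakest quintile and none of the strongest.

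Individual members are ordered here by the mean of their within-list percentiles, an order that differs from that on the common scale. First by this mean was chr2:179503649-179504248, whose mean on the common scale was 69.2. By the common scale chr19:4484988-4485545 came first with 71.9, followed by chr6:41450794-41451373 with 70.9 and chr6:6751828-6752482 with 70.2. At chr2:179503649-179504248 the peak had rank 304 in Foxa1-C3, 1571 in Foxa3-N1, 963 in Foxa2-C3 and 1521 in Foxa3-N2. The authors' scores of this region were 65.5, 40.8, 84.2 and 68.1 in the same order. The 4 peak midpoints lay within 24.5 bp of each other, and the nearest peak with the Foxa3 N-terminal domain was 427551 bp away. Its within-list percentiles were 93.7 in Foxa1-C3, 79.4 in Foxa3-N1, 93.0 in Foxa2-C3 and 90.8 in Foxa3-N2. On the common scale they were 89.4 in Foxa1-C3, 58.0 in Foxa3-N1, 69.8 in Foxa2-C3 and 59.6 in Foxa3-N2.

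The next region, chr6:41450794-41451373, ranked 742 in Foxa1-C3, 947 in Foxa3-N1, 1849 in Foxa2-C3 and 472 in Foxa3-N2. It had a peak of the other kind of chimera 29369 bp away. A member at chr6:6751828-6752482 ranked 313 in Foxa1-C3, 2779 in Foxa3-N1, 1451 in Foxa2-C3 and 154 in Foxa3-N2. Another at chr19:4484988-4485545 had the best rank of any member in any list, 42 in Foxa3-N2 (score 250.6), where it stood at percentile 99.7. It ranked 460 in Foxa1-C3, 886 in Foxa2-C3 and 3107 in Foxa3-N1, at percentile 59.2 of that list. On the common scale the chr6 member stood at 94.7 in Foxa3-N2 and 37.7 in Foxa3-N1, and the chr19 member at 98.5 and 33.3 in the same lists, whose chimeras differ in the N-terminal domain and in the antibody.

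Other strong members showed other profiles. The region at chr3:97746217-97746770 ranked 328 in Foxa1-C3, and on the common scale of the 2791 shared regions it stood at percentile 88.6 there, 54.9 in Foxa3-N1, 27.9 in Foxa2-C3 and 52.0 in Foxa3-N2. The region at chr5:55013909-55014587 was lowest in Foxa1-C3, at 46.4 on the same scale, with 65.6 in Foxa3-N1, 71.3 in Foxa2-C3 and 81.3 in Foxa3-N2. The region at chr1:138568629-138569169 stood at 77.7 in Foxa1-C3, 64.6 in Foxa3-N1, 42.2 in Foxa2-C3 and 61.8 in Foxa3-N2. It lay 6155 bp from a peak with the Foxa3 N-terminal domain. The others of the 10 strongest lay at chr16:10849861-10850532, chr4:59801780-59802427 and chr2:157979425-157979963. Mean within-list percentiles of the 10 ran from 83.0 to 89.2.

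Among the top peaks of a list, the share of members lay below the share of all its peaks in 3 lists and above it in Foxa3-N2. With the length of the shortest list as a limit, 30 members (9.87%) were among the 956 strongest peaks of Foxa1-C3, which make up 19.9% of that list. The count was 5 (1.64%) in Foxa3-N1, where such peaks make up 12.5% of the list, and 9 (2.96%) in Foxa2-C3, where they make up 6.97%. In Foxa3-N2 it was 33 (10.9%), against 5.78% of the list, and 73 members (24.0%) stood at percentile 90 or above there. For 240 members no list had the peak among its 956 strongest. For 53 members a single list did, for 9 members 2 lists did and for 2 members 3 lists did. The weakest member by mean percentile, chr9:71416489-71416962, ranked 4300 of 4807 in Foxa1-C3, 13415 of 13715 in Foxa2-C3, 6305 of 7625 in Foxa3-N1 and 12081 of 16543 in Foxa3-N2. It was followed by chr2:132028871-132029330 and chr11:16536485-16536982, with mean percentiles of 17.8 and 21.0.

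Regions that just missed the rule reached higher strength than any member where a single further list kept them out. The strongest of these, chr1:194123422-194124014, ranked 275 in Foxa1-C3, 56 in Foxa3-N1, 1179 in Foxa2-C3 and 217 in Foxa3-N2 (mean percentile 95.9), and its peak in Foxa3-C1 ranked 1381 of 7533. The next, chr6:61092570-61093269 and chr1:92530137-92531356, had mean percentiles of 94.5 and 91.8 and Foxa3-C1 peaks of rank 1787 and 3146. Among regions that lacked 1 of the 4 lists with the Foxa3 C-terminal domain, chr10:9277330-9277997 (no Foxa2-C3 peak), chr18:82681377-82681962 (no Foxa3-N1 peak) and chrX:50375049-50375660 (no Foxa1-C3 peak) had mean percentiles of 89.1, 87.1 and 86.6 over the lists that held them. The first member by this mean had 89.2.

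Peaks of the 4 lists lay close together within a member, which the rule itself favours because only overlapping peaks were merged. The 4 midpoints spanned a median of 65.3 bp (quartiles 44.5 and 103.5), and in 224 members (73.7%) they lay within 100 bp. In 303 of the 304 members a stretch was shared by all 4 peaks, with a median length of 323 bp in merged regions of a median 563 bp. In regions of all 8 lists the same 4 midpoints spanned a median of 51 bp, and in 85.3% of them they lay within 100 bp. With 1, 2 or 3 further lists the share within 100 bp was 78.1, 79.5 and 78.0%, and the median span was 66.5, 59.5 and 59.5 bp. The share was thus lowest for members, but their median span was not the largest. These shares carry no interval here, so a looser position is not shown to be particular to members. Pairwise, the median midpoint distance over members was smallest for Foxa2-C3 with Foxa3-N2 (27.3 bp) and ran from 32.8 to 35.5 bp in the other 5 pairs. The widest member, chr3:122184935-122186482, measured 1548 bp; the Foxa2-C3 peak there was 1538 bp wide, and the 4 midpoints spanned 505 bp.

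Member peaks differed in width from the rest of their lists as their scores did. The median width in Foxa3-N2 was 503.5 bp for members and 415 bp for all other peaks of the list, and in Foxa2-C3 503.5 and 461 bp. In Foxa1-C3 it was 398.5 bp for members and 414 bp for other peaks, and in Foxa3-N1 392 and 415 bp. Compared with other peaks of similar score (the middle range of the members' own scores), the difference was 4.5 bp in Foxa1-C3, -7 bp in Foxa3-N1, 11.5 bp in Foxa2-C3 and 14.5 bp in Foxa3-N2. At matched score the members were thus of nearly the same width as the other peaks of their list.

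Members lay about as far from peaks of the other kind of chimera as all regions that had no such peak. The nearest peak with the Foxa3 N-terminal domain was at a median distance of 51427 bp (quartiles 16574 and 132674 bp). Within 1 kb it was found for 11 members (3.62%, 2.03 to 6.36%), within 10 kb for 56 (18.4%) and within 100 kb for 205 (67.4%). The shares for all 15323 regions without such a peak were 3.15%, 20.8% and 68.3%, each inside the members' interval. The closest case was chr11:104178026-104178782, with a Foxa3-C1 peak 171 bp away. At chr14:60425057-60426039 all 4 lists with the Foxa3 N-terminal domain had a peak within 1 kb, and a region of all 8 lists lay 558 bp away. With the requirement that no such peak lie within 1 kb, 293 members were left.

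The 2 members closest together, chr17:79544329-79544882 and chr17:79579742-79580278, were 34860 bp apart. Another member lay within 100 kb for 16 members (5.26%) and within 1 Mb for 93 (30.6%). To the nearest merged region of any kind the median distance was 10605 bp for members and 10510 bp for all 24999 regions, whereas it was 6343 bp for the 529 regions of all 8 lists. Members had another region within 10 kb in 49.0% of cases (43.4 to 54.6%), regions of all 8 lists in 61.8% (57.6 to 65.9%) and all regions in 48.8%. By spacing the members were closer to all regions together than to the regions of all 8 lists.

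All 20 chromosomes in the lists carried members, from 6 on chromosome X and 7 on chromosome 19 to 23 each on chromosomes 2 and 3. As a share of the regions common to the lists with the Foxa3 C-terminal domain, members made up between 7.86% on chromosome 8 (4.44 to 13.5%) and 14.6% on chromosome 15 (8.74 to 23.4%). The intervals of all 20 chromosomes include the genome-wide share of 10.9%. Leaving out 1 list changes the rule on every chromosome at once. The number of regions that met it was 896 without Foxa1-C3, 695 without Foxa3-N1, 545 without Foxa3-C1 and 442 without Foxa2-N3. Without Foxa1-C3 or Foxa3-N1 the share is of the regions common to the lists left. Genome-wide shares of these runs are not given here, so no move is shown to be particular to a chromosome. In 5 of the 8 runs each share stayed inside its interval above. On chromosome 8 the share was 15.6% without Foxa1-C3, 18.3% without Foxa3-N1, 12.1% without Foxa2-N3 and 13.6% without Foxa3-C1. On chromosome 15 it was 23.8% without Foxa1-C3, 23.9% without Foxa3-N1 and 23.6% without Foxa3-C1, and it was the highest of all chromosomes in 1 of the 8 runs that leave out a list.

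A ninth ChIP library was independent of the rule. Its labels name an Hnf4alpha antibody and infection with Foxa1 and Hnf4alpha, while its title names another construct, and it had 698 peaks. Of the 304 members 1 met peaks of this library (0.329%, 0.0581 to 1.84%), against 217 of all 24999 regions (0.868%), a share inside the members' interval. In the groups most like the members the share was also inside that interval. It was 0.235% (36 of 15323) for all regions without a peak in the lists with the Foxa3 N-terminal domain. For the shared regions with a single further list it was 0.679% (3 of 442). Among regions of all 8 lists the share was 0.567% (3 of 529). Among regions held by chimeras with the Foxa3 N-terminal domain alone it was 4.88% (108 of 2211, 4.06 to 5.86%), above the members' interval. The member concerned, chr2:152653385-152653894, was met at its 2 ends by peaks of rank 570 and 258 in the Hnf4alpha-antibody list. It was a weak member, at percentile 15.4 in Foxa1-C3, 36.6 in Foxa3-N1, 46.9 in Foxa2-C3 and 53.2 in Foxa3-N2. No further member had an Hnf4alpha-antibody peak within 1 kb.

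Which regions met the rule depended on how deep each list was read. With the 956 strongest peaks of each list, 20 regions met it and none of them was among the 304, so each of the 20 had a peak with at least 1 chimera carrying the Foxa3 N-terminal domain in the full lists. With peaks scoring above the pooled median of the 8 lists, 244 regions met it, 51 of them among the 304. That setting takes the scores of different lists as comparable, which is not known. With the 3594 strongest peaks of each list and without Foxa1-N3, a setting chosen after seeing the data, 78 regions met it and 34 were among the 304.

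**Figure D5:**
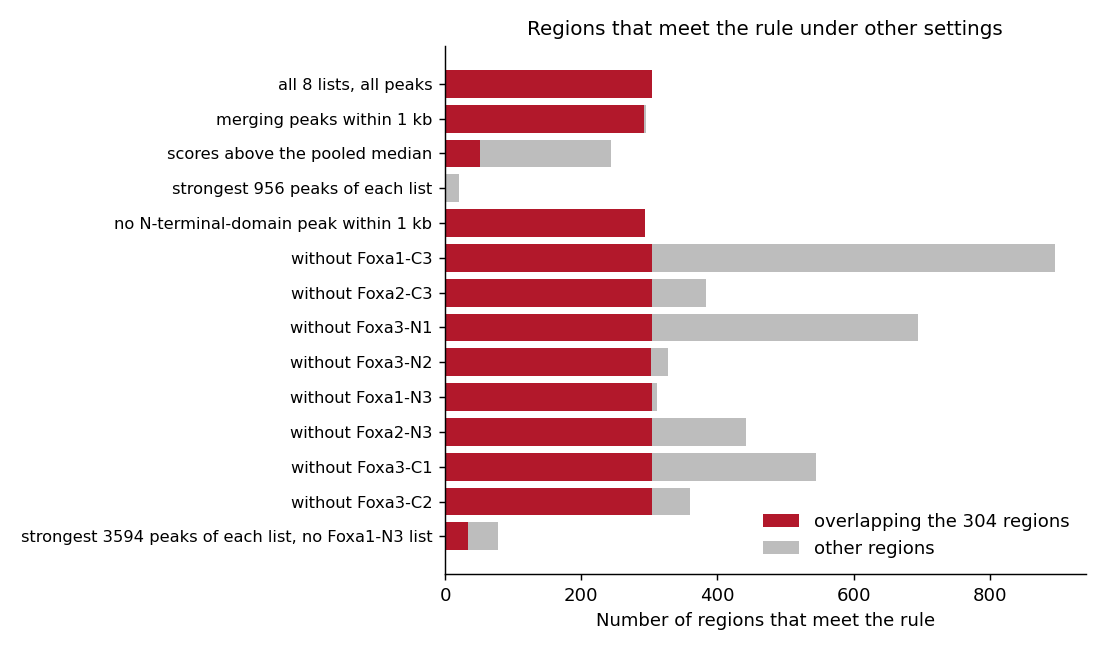
Number of regions that met the rule (horizontal axis) with all peaks of the 8 lists and under 13 other settings, divided into regions overlapping the 304 members (red) and other regions (grey). The number runs from 20 with the 956 strongest peaks of each list, none of them shared with the 304, to 896 without Foxa1-C3.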

How the data were processed

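Of 18 samples, 9 were ChIP libraries and 9 inputs; the inputs were not analysed here. Per the submitters' processing notes, reads and peaks were handled with BWA 0.6.2, MACS2 2.1.0 and bedtools 2.16.2 on mm9. Settings of the peak caller and its use of the input: not given in the sources used here. Every list deposited by the authors gives position, name and score of every peak of 1 library, with no header. No label or header says what kind of score was deposited, so it served only for ordering and filtering peaks inside a list.

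Starts were converted to count from 1. Peaks of the 8 Foxa lists overlapping by 1 bp or more were merged, which gave the same 24999 regions as bedtools 2.31.1, and the routine was tested on simulated data. Where a list had several peaks in a region, the highest-scoring was used. Shares carry 95% Wilson intervals. The members and the lists compared were chosen with earlier results of these data known. Regions named were the 10 strongest and 3 weakest members by mean percentile, the widest, the 2 closest together, the one meeting Hnf4alpha-antibody peaks, and the 3 strongest on each side just outside the rule. Others, namely the 2 described for their nearest Foxa3 N-terminal-domain peak, were chosen after their values were seen. Regions of 1 library are not replicates, so no test was made. Planned motif, gene and protein descriptions were not run because no mm9 genome or annotation and no protein table were used here. Alternatives were another merging distance, score threshold, list length, distance and comparison set, and leaving out each construct. Computation used pandas 2.3.3 and numpy 2.4.6 under Python 3.11.15, with intervals from scipy 1.17.1 and figures from matplotlib 3.10.9.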

Additional observations from a re-analysis of the deposited data

How the results depend on the processing

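The number of regions that met the rule was 304 with all peaks, 295 after merging peaks within 1 kb, 244 with scores above the pooled median (19.2), 20 with the 956 strongest peaks of each list and 78 with the 3594 strongest and no Foxa1-N3 list. Leaving out each construct in turn gave 311 (without Foxa1-N3) to 896 (without Foxa1-C3). In those runs the median percentile of member peaks ran from 35.5 to 47.6 in Foxa1-C3, from 56.4 to 70.1 in Foxa2-C3, from 34.2 to 45.9 in Foxa3-N1 and from 71.6 to 82.2 in Foxa3-N2. Members as a share of the regions common to the lists with the Foxa3 C-terminal domain ran from 14.6 to 23.9% on chromosome 15 and from 7.86 to 18.3% on chromosome 8. The number of members rose genome-wide in these runs too, so these ranges are not shown to be particular to either chromosome. Chromosome X had the highest share in 6 of these 8 runs, and chromosome 8 the lowest in 4. The share of members meeting an Hnf4alpha-antibody peak was 0 of 244 with scores above the pooled median, where 3 counts would be 1.23%, and 0.144 to 0.781% when a construct was left out. Width differences between members and other peaks of a list were -15.5, 42.5, -23 and 88.5 bp in Foxa1-C3, Foxa2-C3, Foxa3-N1 and Foxa3-N2, and 4.5, 11.5, -7 and 14.5 bp at similar score, with a turned sign in Foxa1-C3. A peak with the Foxa3 N-terminal domain lay within 1 kb of 3.62% of members, within 10 kb of 18.4% and within 100 kb of 67.4%. Another member lay within 100 kb of 5.26% of members, within 10 kb of 0% and within 1 Mb of 30.6%. No paired analysis was possible because each construct has 1 library and no result comes from a test. Unknown depth limits every absence reported here.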
